A study of Magallana hongkongensis with 2 samples.

Results

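The molecular chaperones of the endoplasmic reticulum (ER) were followed as 6 unigenes, that is, assembled transcripts, out of 21226 with reads in at least 1 library of oyster gill. They were chosen by name: the 78 kDa glucose-regulated protein (GRP78), glucose-regulated protein 94 (GRP94), calreticulin, and 3 unigenes described as calnexin. The choice was made with earlier results of these data known. The series asks which transcripts of the Hong Kong oyster (Crassostrea hongkongensis, also Magallana hongkongensis), an estuarine bivalve, differ after heat. Polyadenylated RNA from gill was sequenced as 1 library per group, so there are no replicates, and every interval given covers counting error only.

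The label heat shock stands for wild adults, sex not determined, that spent 1 h in seawater at 37 °C and were then brought back to 23 °C, with the gill of 10 such oysters pooled. The label control stands for wild adults, sex not determined, held at 23 °C throughout. Per the labels, both groups had 2 weeks of acclimation in the laboratory on a diet of the algae Tetraselmis suecica and Isochrysis galbana. The sources used here give neither the time between the return to 23 °C and sampling nor the number of oysters in the control library.

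As background, the ER is where secreted and membrane proteins fold. GRP78 (also called BiP) is the ER member of the HSP70 family and binds exposed hydrophobic stretches of new chains, while GRP94 is the ER member of the HSP90 family and acts on a narrower set of clients. Calreticulin, soluble in the lumen, and calnexin, anchored in the membrane, are lectins that hold glycoproteins by a glucose left on their N-linked sugar. In vertebrates the transcription of this group rises when unfolded protein builds up in the ER, a program called the unfolded protein response, and GRP78 itself keeps the sensors of that response inactive.

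The library labelled heat shock held 4173215 uniquely mapped reads over 20751 unigenes, and the library labelled control held 3925349 over 20824. The heat shock transcripts listed here, summed, ran against these labels. The 20 listed unigenes of cytosolic HSP70, HSP90 and small heat shock proteins held 0.322% of reads in the library labelled heat shock and 6.20% in the library labelled control. The libraries are therefore named by label throughout. Whether the labels or files of the libraries were exchanged was not tested. Every direction given here is one between the labels, and an exchange would turn each of them round. Elongation factor 1-alpha, beta-actin and glyceraldehyde-3-phosphate dehydrogenase lay between 0.968 and 1.15 times their level in the library labelled control. Markers of gill cilia (axonemal dynein, tektin, radial spoke and intraflagellar transport proteins) held 1.34% of reads in the library labelled heat shock and 1.11% in the library labelled control. At most 2 of the 93 listed cilia unigenes were at 0 in either library.

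All 6 chaperone unigenes were less abundant in the library labelled heat shock, in which they held 5463 reads together, against 42008 in the library labelled control. These are 0.131% of reads (95% exact binomial interval 0.127 to 0.134) in the library labelled heat shock and 1.07% (1.06 to 1.08) in the library labelled control, an 8.18-fold lower share (7.95 to 8.41). GRP78 differed most, GRP94 and calreticulin less, and the calnexin unigenes least. Calls of lower or higher required 20 or more reads in both libraries combined, a difference of 2-fold or more and a 95% interval of the ratio that excluded 1. By this rule all 6 were called lower, where 3.25% of the 17364 tested unigenes were, and none was called higher, where 3.97% of all tested were. With a 4-fold threshold, GRP78, GRP94 and calreticulin were still called, 3 of the 6, beside 0.812% of all tested unigenes. In bulk tissue, fewer cells of a type and less RNA per cell cannot be told apart.

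**Figure D1:**
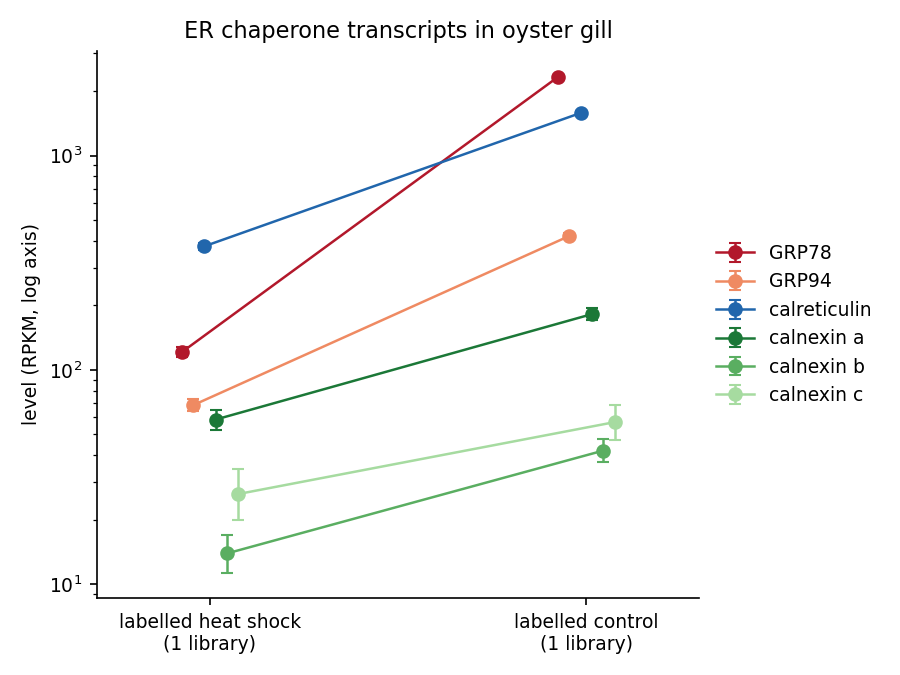
Level of each ER chaperone unigene in RPKM (reads scaled to unigene length and library total, log axis) in the library labelled heat shock (left) and the library labelled control (right); bars are exact Poisson 95% intervals, which cover counting error only, and lines join the same unigene. Every unigene is lower on the left, and the lines of GRP78 (121 on the left, 2331 on the right) and calreticulin (377 on the left, 1581 on the right) cross.

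GRP78 (Unigene0015183, described as 78kDa glucose regulated protein, 2697 bases) had 1361 reads in the library labelled heat shock and 24676 in the library labelled control. Its level was 121 RPKM (exact Poisson interval 115 to 128) in the library labelled heat shock and 2331 RPKM (2302 to 2360) in the library labelled control. It ranked 781 by RPKM among the unigenes listed for the library labelled heat shock, and 28 in the library labelled control, where it was among the most abundant transcripts of the gill. The ratio of heat shock over control was 0.0519 (exact conditional binomial 95% interval 0.0491 to 0.0548), which is 19.3-fold lower (18.3 to 20.4). Reads covered nearly the whole unigene in both libraries, 99.52% of its length in the library labelled heat shock and 99.89% in the library labelled control. Of the 1422 unigenes with at least 1000 reads over both libraries, only 7 had a lower ratio than GRP78, which stood at position 8 from the lowest.

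GRP94 (Unigene0014551, 3261 bases) was next. It had 931 reads in the library labelled heat shock and 5401 in the library labelled control, which is 68.4 RPKM (64.1 to 73.0) in the library labelled heat shock and 422 RPKM (411 to 433) in the library labelled control. The transcript was 6.17-fold lower (5.75 to 6.62) in the library labelled heat shock, with coverage of 97.21% of its length there and 98.87% in the library labelled control. Its ratio stood at position 27 from the lowest among the 1422 abundant unigenes.

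Calreticulin (Unigene0017898, 1695 bases), which besides its lectin role binds much of the calcium stored in the ER, had 2669 reads in the library labelled heat shock and 10521 in the library labelled control. That is 377 RPKM (363 to 392) in the library labelled heat shock and 1581 RPKM (1551 to 1612) in the library labelled control. The transcript was 4.19-fold lower (4.02 to 4.37) in the library labelled heat shock, position 35 from the lowest among the abundant unigenes. Unlike GRP78, it stayed among the leading transcripts in the library labelled heat shock, where it ranked 187 by RPKM, against 47 in the library labelled control.

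Calnexin was spread over 3 unigenes, called a, b and c here. Calnexin a (Unigene0002355, 1442 bases) had 353 reads in the library labelled heat shock and 1031 in the library labelled control, 3.11-fold lower (2.75 to 3.51). Calnexin b (Unigene0002356, 1618 bases) had 94 reads in the library labelled heat shock and 267 in the library labelled control, 3.02-fold lower (2.38 to 3.86). Calnexin c (Unigene0002357, 500 bases) had 55 reads in the library labelled heat shock and 112 in the library labelled control, 2.16-fold lower (1.55 to 3.05). All 3 were called, but c only just passed the 2-fold threshold and its interval reaches below it. Summed, they held 502 reads in the library labelled heat shock and 1410 in the library labelled control, 2.99-fold lower (2.69 to 3.31). Over their summed length this is 33.8 RPKM in the library labelled heat shock and 100.9 RPKM in the library labelled control.

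The calnexin reads were divided among the 3 unigenes as follows. Calnexin a took 70.3% of them (66.1 to 74.3) in the library labelled heat shock and 73.1% (70.7 to 75.4) in the library labelled control. Calnexin b took 18.7% (15.4 to 22.4) in the library labelled heat shock and 18.9% (16.9 to 21.1) in the library labelled control. Calnexin c took 10.96% (8.36 to 14.02) in the library labelled heat shock and 7.94% (6.59 to 9.48) in the library labelled control. The intervals of each unigene overlap between libraries. The descriptions do not say whether a, b and c are pieces of 1 gene, alleles or separate genes, and because reads were counted only where they mapped uniquely, reads shared by such copies are absent from all 3 counts. Calnexin b was also covered less completely, over 57.85% of its length in the library labelled heat shock and 78.74% in the library labelled control.

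**Figure D2:**
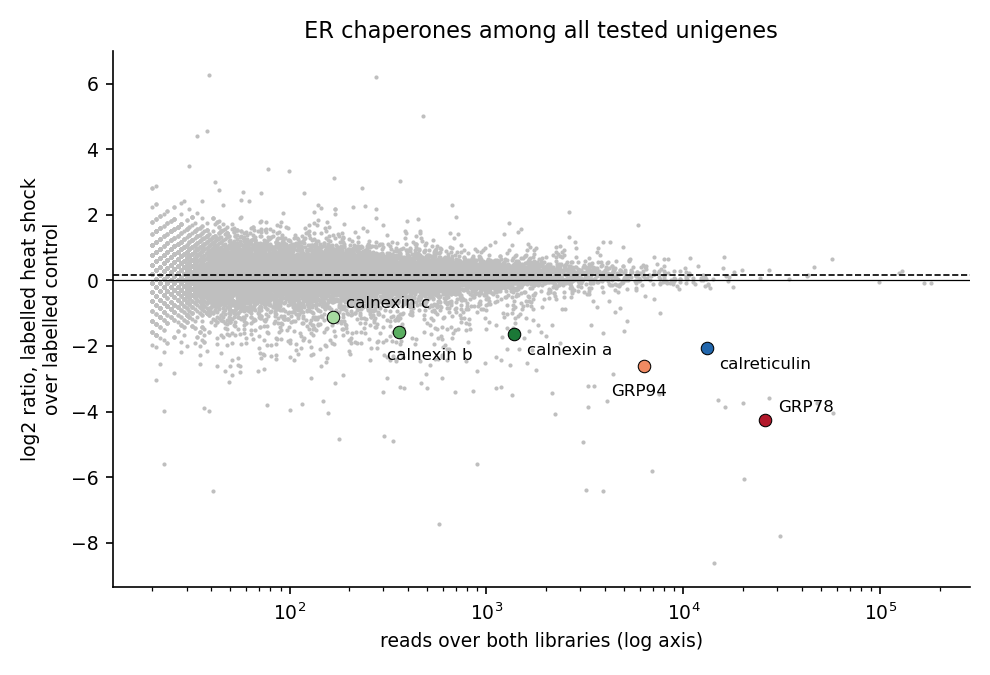
Log2 ratio of the library labelled heat shock over the library labelled control (prior count 0.5) against reads over both libraries (log axis) for all 17364 tested unigenes (grey) and the 6 ER chaperone unigenes (coloured); the solid line is 0 and the dashed line the median of all tested unigenes, 0.17. The 6 lie below the bulk of unigenes of similar abundance, from -1.11 for calnexin c to -4.27 for GRP78.

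On the log2 scale (prior count 0.5) the 6 ratios were -4.27 for GRP78, -2.62 for GRP94, -2.07 for calreticulin, and -1.63, -1.59 and -1.11 for calnexin a, b and c. Their median was -1.85, beside 0.17 for all tested unigenes. Scaling by the trimmed mean of M-values (TMM), in place of the library total, moves the median of all tested unigenes to 0.01 and that of the 6 to -2.01. It also moves the split of calls over all tested unigenes, which was 564 lower and 690 higher with the library total and 759 lower and 406 higher with TMM. The 6 unigenes were called lower with either scaling.

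The chaperones also differed among themselves, which was measured as the ratio of 2 unigenes' ratios, a quantity on which library scaling has no bearing. Of the 15 pairs of the 6 unigenes, 13 had a 95% Wald interval that excluded no difference, and 11 still did at an error level of 0.1% in place of 5%. GRP78 was lower than GRP94 by a further 3.13-fold (2.86 to 3.41) in the library labelled heat shock, and lower than calreticulin by a further 4.60-fold (4.29 to 4.93). GRP94 was lower than calreticulin by a further 1.47-fold (1.36 to 1.60). Calreticulin and calnexin a, the soluble and the membrane-bound lectin, were closer, 1.35-fold apart (1.19 to 1.53) with calreticulin the lower. The pairs whose interval included no difference were calnexin a with b, at -0.04 on the log2 scale (-0.42 to 0.34), and calnexin b with c, at -0.48 (-1.06 to 0.10).

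The makeup of the group also differed between the libraries. Of the reads on the 6 unigenes, GRP78 took 24.9% (23.8 to 26.1) in the library labelled heat shock and 58.7% (58.3 to 59.2) in the library labelled control. Calreticulin took 48.9% (47.5 to 50.2) in the library labelled heat shock and 25.0% (24.6 to 25.5) in the library labelled control. So among the 6 unigenes calreticulin led in the library labelled heat shock, and GRP78 in the library labelled control. GRP94 took 17.0% in the library labelled heat shock and 12.9% in the library labelled control, and calnexin a took 6.46% in the library labelled heat shock and 2.45% in the library labelled control. These are shares of reads, in which a longer transcript counts for more.

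**Figure D3:**
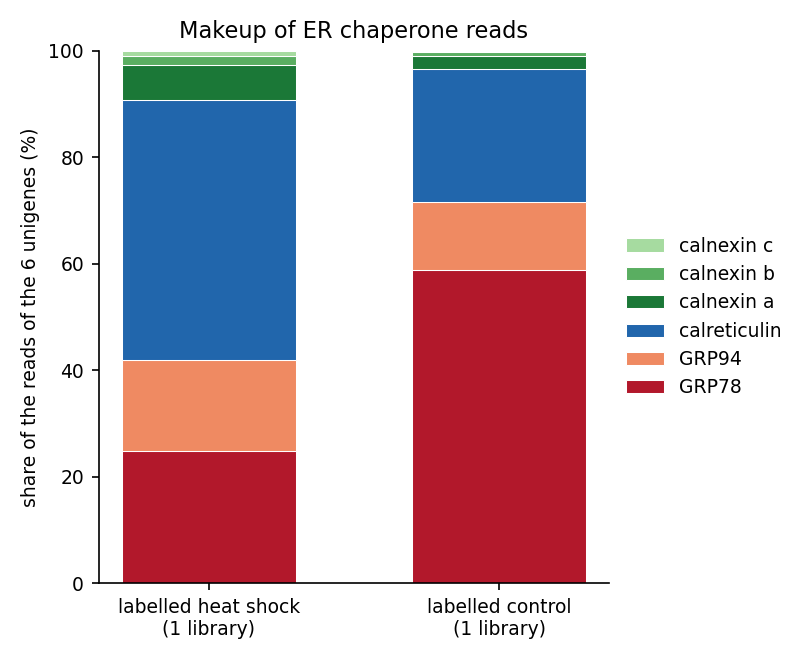
Share of the reads on the 6 ER chaperone unigenes that each one took, in percent, in the library labelled heat shock (left, 5463 reads) and the library labelled control (right, 42008 reads). Calreticulin takes the largest part on the left (48.9%) and GRP78 the largest on the right (58.7%).

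Per length, the order of the 4 best-covered unigenes was calreticulin, GRP78, GRP94, calnexin a in the library labelled heat shock and GRP78, calreticulin, GRP94, calnexin a in the library labelled control. The level of GRP78 in RPKM was 0.320 times that of calreticulin (0.300 to 0.342) in the library labelled heat shock and 1.47 times (1.44 to 1.51) in the library labelled control. GRP78 stood 1.77-fold above GRP94 (1.63 to 1.92) in the library labelled heat shock and 5.52-fold above it (5.36 to 5.69) in the library labelled control. The closest neighbours were GRP94 and calnexin a in the library labelled heat shock, 1.17-fold apart (1.03 to 1.32), against 2.32-fold apart (2.17 to 2.48) in the library labelled control. No interval of a neighbouring pair among these 4 included a ratio of 1, within counting error. Below them, calnexin c had 26.4 RPKM (19.9 to 34.3) in the library labelled heat shock and 57.1 (47.0 to 68.7) in the library labelled control. Calnexin b was lowest in both, at 13.9 RPKM (11.2 to 17.0) in the library labelled heat shock and 42.0 (37.1 to 47.4) in the library labelled control.

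GRP78 and GRP94 each have relatives of the same family in other compartments, and these were set beside them. The cytosolic HSP70 with the most reads (Unigene0005548), which folds proteins in the cytosol, had 3488 reads in the library labelled heat shock and 44274 in the library labelled control. GRP78 had a ratio 1.43-fold lower still (1.34 to 1.52). Heat shock protein 70 B2 (Unigene0016013) had 321 reads in the library labelled heat shock and 19995 in the library labelled control, and there GRP78 had the higher ratio, by 3.44-fold (3.04 to 3.89). GRP78 therefore lay between these cytosolic HSP70 unigenes. Mitochondrial stress-70 protein (Unigene0015332), the HSP70 that draws proteins into mitochondria, had 1613 reads in the library labelled heat shock and 3561 in the library labelled control. The ratio of GRP78 was 8.21-fold (7.58 to 8.90) below that of the mitochondrial relative. In the HSP90 family, cytosolic HSP90 (Unigene0015010), a chaperone of kinases and hormone receptors in vertebrates, had 3478 reads in the library labelled heat shock and 54239 in the library labelled control. The ratio of GRP94 was 2.69-fold (2.49 to 2.90) above that of cytosolic HSP90.

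**Figure D4:**
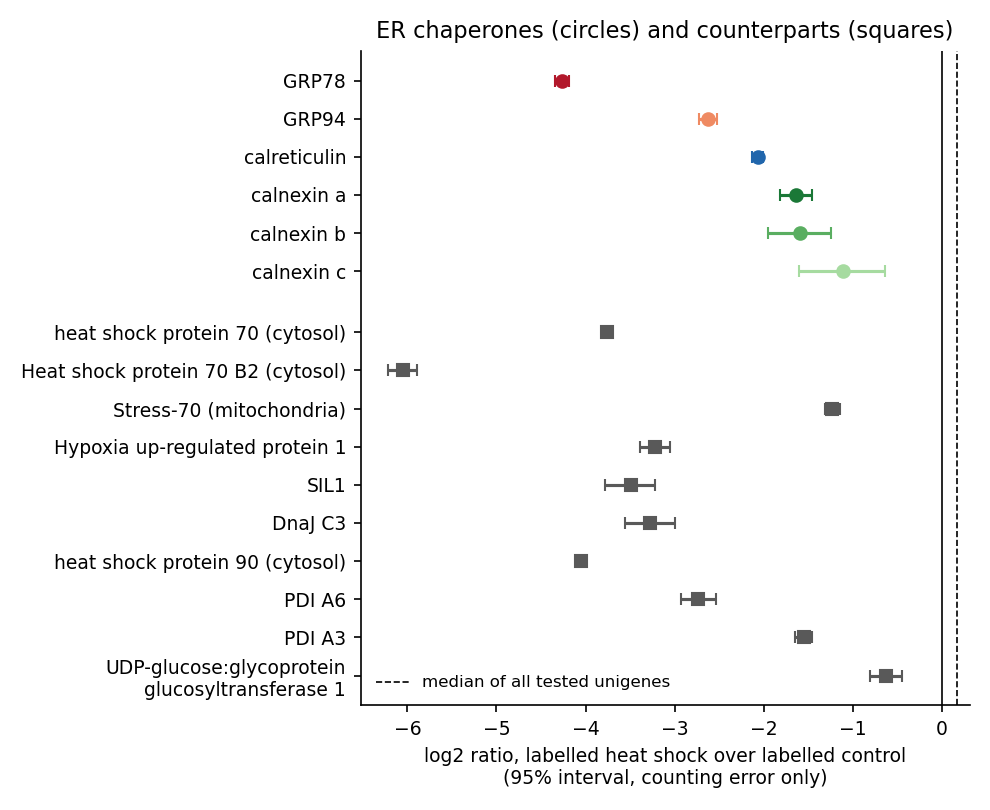
Log2 ratio of the library labelled heat shock over the library labelled control for the 6 ER chaperone unigenes (circles) and for 10 relatives and working partners (squares), with exact conditional binomial 95% intervals that cover counting error only; the solid line is 0 and the dashed line the median of all tested unigenes, 0.17. GRP78 (-4.27) lies between the 2 cytosolic HSP70 unigenes, while GRP94 (-2.62) lies right of cytosolic HSP90 (-4.05) and beside PDI A6 (-2.73).

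GRP78 works in a cycle with partners in the lumen. Of the 16 tested unigenes of such cofactors, 10 were called lower (62.5%, beside 3.25% of all tested) and no unigene higher (beside 3.97%). The median log2 ratio was -1.55 (-1.72 with TMM). Some of the 16 share a description, among them unigenes of DnaJ subfamily C member 3 and of DnaJ subfamily B member 11. Such unigenes may be pieces of the same gene, so the counts are of unigenes, not genes. Hypoxia up-regulated protein 1 (Unigene0013933) and SIL1 (Unigene0017098) exchange the nucleotide of GRP78. The first had 334 reads in the library labelled heat shock and 2929 in the library labelled control, 9.32-fold lower (8.32 to 10.5). SIL1 had 116 reads in the library labelled heat shock and 1229 in the library labelled control, 11.3-fold lower (9.31 to 13.7). DnaJ subfamily C member 3 (Unigene0015577), which delivers unfolded chains to GRP78, had 118 reads in the library labelled heat shock and 1072 in the library labelled control, 9.66-fold lower (7.98 to 11.8). The ratio of GRP78 was lower than those of all 3 partners, by 2.07-fold (1.82 to 2.34), 1.71-fold (1.40 to 2.09) and 1.996-fold (1.64 to 2.43) for hypoxia up-regulated protein 1, SIL1 and DnaJ C3.

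The J-domain partner DnaJ subfamily B member 11 gave mixed values. Unigene0015415 had 2025 reads in the library labelled heat shock and 1466 in the library labelled control. Unigene0006646 had 1963 reads in the library labelled heat shock and 1375 in the library labelled control. The reads of Unigene0006647 were 572 in the library labelled heat shock and 459 in the library labelled control, and none of these 3 was called. A further unigene with this description, Unigene0015248, named here after its values were seen, was called lower, with 155 reads in the library labelled heat shock and 405 in the library labelled control. Also named after its values were seen, mesencephalic astrocyte-derived neurotrophic factor homolog (Unigene0004445), an ER protein that binds GRP78 in mammals, was 8.87-fold lower, with 50 reads in the library labelled heat shock and 417 in the library labelled control.

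Calnexin and calreticulin take glycoproteins that glucosidases have trimmed, and a glucosyltransferase returns unfolded ones to them. Of the 14 tested unigenes of this cycle, 2 were called lower (14.3%, beside 3.25% of all tested) and no unigene higher (beside 3.97%). The median log2 ratio was -0.42 (-0.59 with TMM). The folding sensor of the cycle, UDP-glucose:glycoprotein glucosyltransferase 1 (Unigene0013574), had 422 reads in the library labelled heat shock and 613 in the library labelled control, a ratio of 0.648 (0.571 to 0.734) that was not called. Glucosidase 2 subunit beta (Unigene0009746) had 200 reads in the library labelled heat shock and 267 in the library labelled control, a ratio of 0.705, and was not called either. A further unigene with this description, Unigene0009747, named here after its values were seen, was called lower. It had 71 reads in the library labelled heat shock and 137 in the library labelled control, 2.05-fold lower (1.53 to 2.77). Calnexin a had a ratio 2.01-fold (1.69 to 2.39) below that of the glucosyltransferase, so the lectin and the enzyme of the cycle differed beyond counting error.

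Disulfide isomerases form and rearrange the bridges between cysteines, and some of them bind the lectins. Of 20 tested unigenes of these enzymes and other ER oxidoreductases, 8 were called lower (40%, beside 3.25% of all tested). Called higher was 1 (5%, beside 3.97%), and the median log2 ratio of the 20 was -0.26 (-0.42 with TMM). Among those called lower, Unigene0002607, Unigene0002609, Unigene0032810 and Unigene0032254, named after their values were seen, are all described as protein disulfide-isomerase A4. Whether they are pieces of the same gene is not known, so the counts are of unigenes, not genes. Unigene0021218, described as A4-like and also named after its values were seen, was not called. Protein disulfide-isomerase A3 (Unigene0016584), the partner of calnexin and calreticulin, had 1322 reads in the library labelled heat shock and 3652 in the library labelled control, 2.94-fold lower (2.76 to 3.13). Its ratio and that of calnexin a were not distinguishable, -0.08 apart on the log2 scale (-0.28 to 0.12), whereas calreticulin had a ratio 1.43-fold (1.32 to 1.54) below it. Protein disulfide-isomerase A6 (Unigene0017553), with 246 reads in the library labelled heat shock and 1539 in the library labelled control, was 6.65-fold lower (5.81 to 7.64). It lay beside GRP94, the difference of their log2 ratios being 0.11 (-0.11 to 0.33). Protein disulfide-isomerase itself (Unigene0015424) had 2835 reads in the library labelled heat shock and 2445 in the library labelled control, a ratio of 1.09 that was not called. ERO1-like protein beta (Unigene0013979), which reoxidizes disulfide isomerases, was 2.72-fold lower with 155 reads in the library labelled heat shock and 396 in the library labelled control. The 1 unigene called higher was TMX3 (Unigene0015021), named after its values were seen, with 90 reads in the library labelled heat shock and 31 in the library labelled control.

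**Figure D5:**
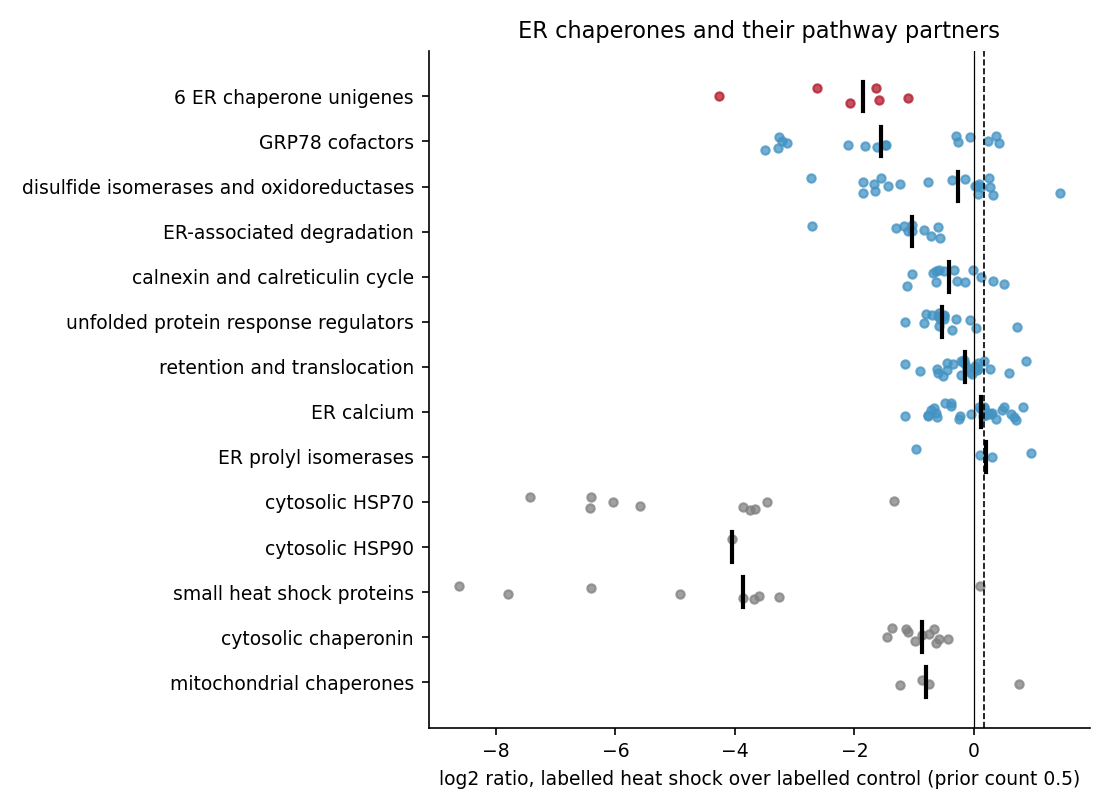
Log2 ratio of the library labelled heat shock over the library labelled control (prior count 0.5) for each tested unigene of the ER chaperones (red), 8 lists of ER partners (blue) and chaperones of other compartments (grey); bars are list medians, the solid line is 0 and the dashed line the median of all tested unigenes, 0.17. No median is drawn for cytosolic HSP70, where 1 unigene had 0 reads in the library labelled heat shock; among the ER lists the cofactors of GRP78 have the lowest median (-1.55) and the prolyl isomerases the highest (0.20).

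Proteins that fail to fold are drawn back into the cytosol and degraded. Of the 10 tested unigenes of this ER-associated degradation, 6 were called lower (60%, beside 3.25% of all tested) and no unigene higher (beside 3.97%). The median log2 ratio was -1.04 (-1.20 with TMM). Derlin-1 (Unigene0017610), a part of the export channel, had 140 reads in the library labelled heat shock and 271 in the library labelled control, 2.06-fold lower. The homocysteine-responsive ubiquitin-like domain member 1 protein (Unigene0019336), which helps assemble that channel in mammals, had 127 reads in the library labelled heat shock and 246 in the library labelled control, also 2.06-fold lower. Transitional ER ATPase (Unigene0014629), the motor of extraction, had 1766 reads in the library labelled heat shock and 2975 in the library labelled control, a ratio of 0.558 that was not called.

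The regulators of the unfolded protein response had few calls. Of 16 tested unigenes 1 was called lower (6.25%, beside 3.25% of all tested) and no unigene higher; the median log2 ratio was -0.54 (-0.70 with TMM). The 1 called was the kinase PERK (Unigene0014806, eukaryotic translation initiation factor 2-alpha kinase 3), which slows translation, with 114 reads in the library labelled heat shock and 240 in the library labelled control, 2.24-fold lower. X-box-binding protein 1 (Unigene0033171), a transcription factor of the response, had 943 reads in the library labelled heat shock and 1318 in the library labelled control, a ratio of 0.673. X-box binding protein-like (Unigene0022148), the unigene of the list with the most reads over both libraries, had 4518 reads in the library labelled heat shock and 2568 in the library labelled control, a ratio of 1.655 that was not called. The counts do not show which splice form of X-box-binding protein 1 was present.

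The rest of the ER showed few calls. In the list of retention and translocation 1 of 25 tested unigenes was called lower (4%) and none higher, a share near the 3.25% of all tested unigenes. Sec61 alpha (Unigene0016364), the channel through which new chains enter, had 1867 reads in the library labelled heat shock and 2002 in the library labelled control, a ratio of 0.877. In the list of ER calcium 1 of 29 was called lower (3.45%) and none higher, and its median log2 ratio of 0.11 changed sign to -0.05 with TMM. The calcium pump of the ER (Unigene0002912) had 1710 reads in the library labelled heat shock and 2468 in the library labelled control, a ratio of 0.652 that was not called, beside the 4.19-fold lower level of the calcium-binding calreticulin. None of the 4 tested prolyl isomerases of the ER was called with the library total, while 1 was called lower with TMM, with the median of ratios or with a total that leaves out the chaperones. Their values ran both ways among unigenes described as cyclophilin B: Unigene0021616 had 1270 reads in the library labelled heat shock and 1115 in the library labelled control, a ratio of 1.07. Unigene0022230 had 268 reads in the library labelled heat shock and 496 in the library labelled control, a ratio of 0.508, and Unigene0018984 had 220 reads in the library labelled heat shock and 106 in the library labelled control, a ratio of 1.95. Over the 8 ER lists together, the 6 chaperones left out, 29 of 134 tested unigenes were called lower (21.6%) and 1 higher (0.746%). The shares of all tested unigenes were 3.25% and 3.97%, and the median log2 ratio of the 134 was -0.36 (-0.52 with TMM).

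Chaperones of other compartments were counted in the same way, beside the 3.25% of all tested unigenes called lower and 3.97% called higher. Of the 20 cytosolic HSP70, HSP90 and small heat shock unigenes 19 were called lower and none higher, and their summed reads, 13455 in the library labelled heat shock and 243290 in the library labelled control, were 19.2-fold lower. Of the 11 subunit unigenes of the cytosolic chaperonin, which folds actin and tubulin, 4 were called lower and no unigene higher; the median log2 ratio was -0.87 (-1.03 with TMM). Of the 4 mitochondrial chaperones 1, stress-70 protein, was called lower and none higher. The summed share of GRP78, GRP94, calreticulin and calnexin (8.18-fold lower) thus lay between that of the 20 listed cytosolic heat shock unigenes and that of the chaperonin, which was 1.82-fold lower.

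The deposited annotation places all 6 unigenes in the KEGG pathway of protein processing in the ER. It places calreticulin and the calnexins also in the pathways of the phagosome and of antigen processing and presentation, and GRP78 also in that of protein export. The ER pathway has 179 unigenes, which held 54765 reads in the library labelled heat shock and 283920 in the library labelled control. The 6 chaperones took 9.98% of these (9.73 to 10.2) in the library labelled heat shock and 14.8% (14.7 to 14.9) in the library labelled control. Of the 173 tested unigenes of the pathway, GRP78 ranked 15 by RPKM in the library labelled heat shock and 6 in the library labelled control, and calreticulin ranked 6 in the library labelled heat shock and 8 in the library labelled control. Without the 6, 38 of 167 tested unigenes of the pathway were called lower (22.8%, beside 3.25% of all tested). Called higher were 2 (1.198%, beside 3.97% of all tested). With TMM 40 were called lower and 1 higher, and with the 0.1% error level 37 were called lower and 0 higher. The pathway as annotated also takes in 12 unigenes of the cytosolic heat shock lists.

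The unigenes of 1000 or more reads whose ratio lay nearest to each chaperone were looked up among 1379 described candidates; this likeness rests on 2 libraries only. Nearest to GRP78 were cytosolic HSP90 (Unigene0015010), alpha-crystallin B chain (Unigene0002164, a small heat shock protein) and a cytosolic HSP70 (Unigene0005547), which were 16.6-fold, 14.6-fold and 14.5-fold lower. Nearest to GRP94 were Cdc37 (Unigene0017217, a co-chaperone of HSP90), chromosome 21 open reading frame 59 (Unigene0018980) and protein disulfide-isomerase A6, which were 6.04-fold, 5.80-fold and 6.65-fold lower. Nearest to calreticulin were a putative HERC2 ubiquitin ligase (Unigene0021321), a dentin sialophosphoprotein precursor (Unigene0000887) and DnaJ subfamily C member 7 (Unigene0007931), which were 4.28-fold, 4.28-fold and 4.35-fold lower. Nearest to calnexin a were baculoviral IAP repeat-containing protein 2 (Unigene0016197), CREB3 regulatory factor (Unigene0000884) and transmembrane protein 66 (Unigene0003498), which were 3.03-fold, 3.23-fold and 2.95-fold lower.

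Markers of other cell types and of food were set beside these values. Hemocyte markers, those of the circulating immune cells, held 0.125% of reads in the library labelled heat shock and 0.117% in the library labelled control. Of 28 tested, 2 were called lower (7.14%, beside 3.25% of all tested) and 5 higher (17.9%, beside 3.97%). Muscle markers held 0.141% of reads in the library labelled heat shock and 0.115% in the library labelled control. Of 16 tested, 2 were called higher (12.5%, beside 3.97% of all tested) and none lower (beside 3.25%). Digestive gland markers held 0.110% of reads in the library labelled heat shock and 0.0962% in the library labelled control. Of 24 tested, 1 was called higher (4.17%, a share near that of all tested) and none lower. None of 5 gonad and 7 mantle markers tested was called. Mantle markers held 0.0708% of reads in the library labelled heat shock and 0.0679% in the library labelled control. Among the 19 listed mantle unigenes, 7 were at 0 in the library labelled heat shock and 1 in the library labelled control. Each mantle unigene at 0 had too few reads over both libraries to be tested. Over all 21226 unigenes, 475 were at 0 in the library labelled heat shock and 402 in the library labelled control. The list for algal food held only 3 unigenes described as chlorophyllide a oxygenase, with 205 reads in the library labelled heat shock and 309 in the library labelled control. Of these 3, 2 were called lower (66.7%, beside 3.25% of all tested). Whether the values of these markers bear on those of the ER chaperones was not tested.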

How the data were processed

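Gill RNA of the Hong Kong oyster was sequenced as 1 library labelled heat shock and 1 labelled control. The submitters' processing notes name CASAVA 1.4 and cutadapt 1.8.1 but no step for either. How the unigenes were assembled, and with which program reads were aligned, was not given in the sources used here. No sequence or genome position was used. Per the file headers, the authors deposited for each unigene the count of uniquely mapped reads, not normalized, the length in bases, the coverage as a percent of that length, and the RPKM. Unigenes carry the name of their best match in other species. The deposited RPKM equalled the value computed from count, length and library total, to a relative difference of at most 5.11e-15. Where only 1 library listed a unigene, the other was given 0 reads, which allows up to 3.

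With 1 library per group no p-value was computed. Counts were scaled to the library total, and the ratio of heat shock over control has an exact Clopper-Pearson 95% interval, from the binomial split of the reads between libraries. PCR copies are not independent molecules, so intervals cover counting error only, and they compare these 2 libraries, not the conditions. Calls needed at least 20 reads over both libraries, a 2-fold difference and an interval that excluded 1. The call rule and the ratio of ratios were tried on simulated Poisson counts with known ratios. Such counts hold counting error only, so the trial says nothing of spread between animals or libraries. The analysis used Python 3.11.15, numpy 2.4.6, pandas 2.3.3 and scipy 1.17.1.

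The 6 unigenes and the lists of partners, drawn by words in the descriptions, were chosen with earlier results of these data known. Named genes are the 6, the 6 unigenes with the most reads in lists of over 10 tested unigenes, any in shorter lists, the 3 nearest in ratio to each chaperone (minimum 1000 reads), and 3 common reference genes. Other names are marked where they appear. Alternatives were the TMM factors of edgeR 4.0.16 and the size factors of DESeq2 1.42.0 (R 4.3.3), both used for scaling only, a library total without the 121 unigenes of heat shock proteins and ER chaperones, no minimum and a minimum of 100 reads, thresholds of 1.5-fold and 4-fold, an interval with an error level of 0.1% in place of 5%, and a prior count of 5. A planned pseudocount for files with only normalized values did not apply, because counts were deposited.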

Additional observations from a re-analysis of the deposited data

How the results depend on the processing

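All 6 ER chaperone unigenes stayed lower in the library labelled heat shock under every scaling, and all were called under each scaling, with no minimum, with a minimum of 100 reads, at 1.5-fold and with the 0.1% error level. At 4-fold 3 were called, GRP78, GRP94 and calreticulin. Calnexin a, b and c, at 3.11-fold, 3.02-fold and 2.16-fold lower with the library total, fell short of that threshold. With the TMM factors, the median of ratios and the total without chaperones, the ratio of heat shock over control was 0.0463, 0.0462 and 0.0483 for GRP78, 0.145, 0.144 and 0.151 for GRP94, and 0.213, 0.212 and 0.222 for calreticulin. For the summed calnexins it was 0.299 with TMM and 0.298 with the median of ratios. Of all tested unigenes, 312 were called lower with a minimum of 100 reads, 992 at 1.5-fold and 141 at 4-fold. Called higher were 406 with TMM, 405 with the median of ratios, 196 with a minimum of 100 reads, 1851 at 1.5-fold, 55 at 4-fold and 315 with the 0.1% error level. In the 8 ER lists, of 134 tested, 51 were called lower and 8 higher at 1.5-fold, beside 992 and 1851 of all 17364 tested. At 4-fold 8 of the 134 were called lower and 0 higher, beside 141 and 55 of all tested. Among the ER prolyl isomerases 1 was called lower with each of the 3 other scalings and 0 with the library total. The median log2 ratio of the ER calcium list reversed with TMM, to -0.051, which lowers the median of all tested unigenes too. No paired analysis was possible because each group has 1 library, and for the same reason no library could be left out. Depth limits calnexin b and c most, with 94 and 55 reads in the library labelled heat shock.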
